A study of Mus musculus with 4 samples.

Results

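Interferon response genes were followed across 4 expression arrays of sorted mouse small intestinal cells. The list holds 44 genes, taken wherever an array feature carried exactly 1 gene symbol and that symbol was on the list. With the feature of highest mean used where a gene had several, 42 of the 44 were measured, of 30702 genes in all. Nlrc5, a regulator of MHC class I genes, was left out because its feature carries several symbols, and Ifi44 was left out because no feature with that symbol alone was found. By their better known inducer, 22 of the measured genes were assigned to type I interferon, 10 to interferon-gamma and 10 to both.

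Interferons are secreted proteins that warn cells of infection. Type I interferons (the alpha family and beta) signal through Ifnar1 and Ifnar2 to a complex with Stat2 and Irf9 that binds the interferon-stimulated response element (ISRE), and switch on antiviral genes such as the Ifit, Oas and Mx families. Interferon-gamma, made by T cells and natural killer cells, signals through Ifngr1 and Ifngr2, acts at gamma-activated sites (GAS) in promoters and drives Irf1, the guanylate-binding proteins and the genes that feed peptides to MHC class I. Both programmes overlap, and most targets respond to some extent to either interferon. In the gut, interferon-gamma from lymphocytes lying among the epithelial cells acts on the crypts, which hold the Lgr5-expressing stem cells.

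All mice were 8 weeks old and carried the Lgr5GFP-CreERT2 allele, in which GFP and a tamoxifen-inducible Cre are made under the control of Lgr5. The groups were wild-type GFP-negative cells (non-ISC), wild-type GFP-positive stem cells (ISC), GFP-positive cells labelled LncGata6mut and GFP-positive cells labelled Ehf-/-. LncGata6 is a noncoding transcript of the Gata6 locus, and Ehf encodes an epithelial transcription factor of the ETS family. The labels do not say how many mice gave each sample. Each group was measured on 1 Clariom D array, so every difference is between single arrays, has no replicate check and carries no error or p-value. Values are log2 array signals. Each array carries 5222 negative controls, and their 95th percentile, called the control limit here, marks the lowest value taken as above background. It was 5.16 for non-stem, 5.62 for wild-type stem, 5.31 for LncGata6 mutant and 5.19 for Ehf knockout cells. Sets of 4 values follow that order of arrays.

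The arrays did not all match their labels, and they are named by label throughout. Ehf read 3.75, 6.99, 5.09 and 3.03, above its limit on the wild-type stem array alone, so its low value does not set the Ehf knockout array apart. LncGata6, listed as Gata6os, lay under the control limit on all 4 arrays and checks no label. Lgr5 was above its limit on the wild-type stem array alone (9.41). Of 11 epithelial marker genes, 11 were above the limit on each of the first 3 arrays but 1 on the Ehf knockout array, where all 9 neutrophil markers and all 11 macrophage markers were above it. Markers of T cells and intraepithelial lymphocytes were above the limit for 9 of 11 genes on the LncGata6 mutant array. The non-stem array held hepatocyte (7 of 7) and kidney tubule (5 of 5) markers. The wild-type stem array held Paneth cell (4 of 4), enterocyte (5 of 7) and endothelial (3 of 5) markers above its limit. On the LncGata6 mutant array the same lists gave 4 of 4, 7 of 7 and 0 of 5. Every sample's protocol speaks of an ILCreg sort, a term for innate lymphoid cells, and the gate is therefore uncertain. In such mixed RNA, fewer cells of a type and less RNA per cell cannot be told apart.

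The sequence in front of the genes was searched for the elements of both interferon pathways and described by class. RefSeq promoter windows of the GRCm38.p6 assembly, from 250 bases before to 50 bases after the start, were found for 33 of the 42 measured genes. The core of the ISRE was searched as GAAA, any 2 bases and GAAA, and that of the GAS as TTCNNNGAA, on both strands. An ISRE core was present in the windows of 16 of these 33 genes (48.5%), against 3.99% of 27025 genes with a window, and a GAS core in 10 (30.3%), against 9.55%. By class, the ISRE core was found for 8 of 16 type I genes and 5 of 10 interferon-gamma genes, while the GAS core was found for 2 and 5 of them. Among genes of both interferons, 3 of 7 held the ISRE core and 3 of 7 the GAS core. A match is a description of letters and not proof of a bound site.

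The following 8 stretches of 150 bases end at the transcription start and are shown as examples from each class. They read 5′ to 3′ along the gene, with matches to either core in capitals.
Ifit1, chr19:34640739-34640888, plus strand: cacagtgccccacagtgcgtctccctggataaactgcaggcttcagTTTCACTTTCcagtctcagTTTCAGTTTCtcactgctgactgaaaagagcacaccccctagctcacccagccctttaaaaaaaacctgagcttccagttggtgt
Isg15, chr4:156200819-156200968, minus strand: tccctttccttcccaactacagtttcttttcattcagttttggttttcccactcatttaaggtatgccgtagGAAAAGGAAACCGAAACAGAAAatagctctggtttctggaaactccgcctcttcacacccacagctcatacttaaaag
Rsad2, chr12:26456453-26456602, minus strand: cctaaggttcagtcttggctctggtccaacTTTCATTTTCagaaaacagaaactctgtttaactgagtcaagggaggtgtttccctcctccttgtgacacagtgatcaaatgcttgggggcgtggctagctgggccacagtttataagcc
Bst2, chr8:71537473-71537622, minus strand: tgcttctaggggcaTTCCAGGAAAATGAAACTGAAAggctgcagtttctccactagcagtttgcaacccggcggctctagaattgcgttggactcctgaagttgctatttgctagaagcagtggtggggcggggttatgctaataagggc
Igtp, chr11:58199406-58199555, plus strand: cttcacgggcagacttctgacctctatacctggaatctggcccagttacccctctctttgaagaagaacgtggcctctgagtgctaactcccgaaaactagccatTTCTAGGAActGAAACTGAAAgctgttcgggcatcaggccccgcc
Gbp2, chr3:142620513-142620662, plus strand: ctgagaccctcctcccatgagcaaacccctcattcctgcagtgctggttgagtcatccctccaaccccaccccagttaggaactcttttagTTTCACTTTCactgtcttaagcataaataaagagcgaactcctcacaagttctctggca
Irf1, chr11:53769864-53770013, plus strand: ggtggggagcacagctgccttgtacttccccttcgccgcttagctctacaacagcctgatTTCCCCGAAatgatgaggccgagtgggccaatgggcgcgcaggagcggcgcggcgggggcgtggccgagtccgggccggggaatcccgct
Psmb8, chr17:34198045-34198194, plus strand: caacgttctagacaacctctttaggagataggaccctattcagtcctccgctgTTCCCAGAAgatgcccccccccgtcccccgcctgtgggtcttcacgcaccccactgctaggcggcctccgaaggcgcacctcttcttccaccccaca
The type I genes Ifit1, Isg15 and Rsad2 hold 2, 3 and 1 ISRE cores and no GAS core. In Ifit1 they begin 104 and 85 bases before the start, and the 3 cores of Isg15 overlap, beginning 78, 72 and 66 bases before it. Bst2 and Igtp hold both cores side by side. In Bst2 the GAS core overlaps the first of 2 ISRE cores, and in Igtp the GAS core begins 45 and the ISRE core 34 bases before the start. Of the interferon-gamma genes shown, Gbp2 holds an ISRE core alone, and Irf1 and Psmb8 hold a GAS core alone.

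Interferon response genes were higher on the LncGata6 mutant array than on the wild-type stem array. A gene is counted as higher or lower where its log2 difference was 1 (2-fold) or more and the larger value reached its control limit. By this rule 21 of 42 were higher and 1 was lower, against 2.57% higher and 2.53% lower of all 30702 genes, or 11.9% and 11.7% of genes above the limit on either array. Of the 42 genes, 30 were above the limit on either array. The median difference was 1.11, against -0.06 over all genes. Of all 30702 genes, 5071 reached the control limit on the wild-type stem array, where that limit was highest, and 6165 on the LncGata6 mutant array. On the wild-type stem array only 10 of the 42 genes reached the control limit, and on the LncGata6 mutant array 29 did. For that reason most folds are bounds: where the dimmer value was under its limit, the limit took its place and the fold is written as "at least". Both values reached their limits for 2 of the 21 higher genes, Irf1 and Igtp, and for 11 of the 21 the fold or its bound was 2 or more. A further 10 of the 42 genes lay under the limit on every array. They were Ifit2, Ifit3, Isg15, Mx1, Mx2, Dhx58, Oas2, Rtp4, Gbp3 and Psmb9. No direction is read for any of them singly, and without them the median difference was 1.33. Leaving them out keeps genes such as Ifit1 and Oasl2, which reached the limit on the LncGata6 mutant array alone, and so favours a higher median.

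**Figure D1:**
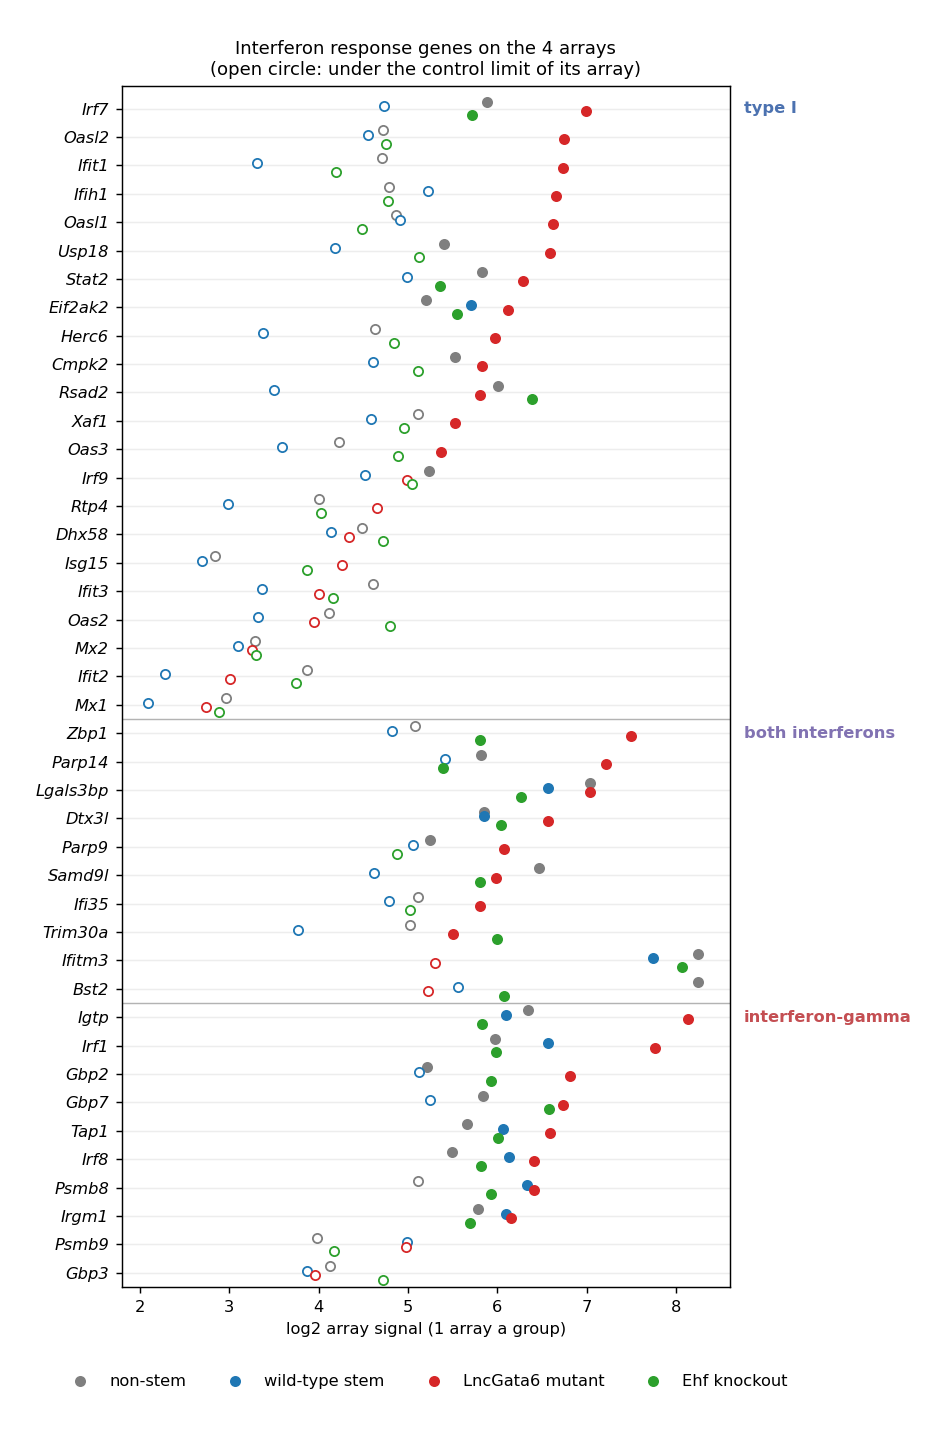
Log2 signal of each measured interferon response gene on the 4 arrays, 1 point per array, with genes grouped by class and sorted by the LncGata6 mutant value; an open circle lies under the control limit of its array. The LncGata6 mutant points lie furthest right for 28 of 42 genes, and the wild-type stem points furthest left for 26.

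Of the 6 measured transcription factors and regulators, 4 were higher on the LncGata6 mutant array. Irf7, the factor that amplifies type I interferon production, read 5.88, 4.74, 6.99 and 5.71, at least 2.58-fold higher on the LncGata6 mutant than on the wild-type stem array. Irf1, an early interferon-gamma target that activates many others, read 5.97, 6.57, 7.76 and 5.98 and was 2.29-fold higher. Both were highest on the LncGata6 mutant array, but Irf1 had its next highest value on the wild-type stem array, where Irf7 was lowest. Irf1 has a second feature, which stayed under the limit on all arrays at 2.55, 3.33, 3.81 and 2.51, and with the median of both features the difference was 0.84, short of the limit. Stat2, the type I signal transducer, read 5.83, 4.99, 6.28 and 5.36, and its partner Irf9 read 5.24, 4.52, 4.99 and 5.05. Stat2 was thus at least 1.58-fold higher, while Irf9 reached the limit on the non-stem array alone. Usp18, which removes Isg15 from proteins and damps the type I receptor, read 5.41, 4.19, 6.59 and 5.12 (at least 1.95-fold higher). Irf8, a factor of myeloid cells and interferon-gamma responses, read 5.49, 6.13, 6.41 and 5.81 and differed by 0.28 from the wild-type stem array, short of the 2-fold limit.

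Among 8 measured sensors of foreign nucleic acid, 5 were higher. Zbp1, which senses left-handed nucleic acid and can trigger cell death, read 5.08, 4.82, 7.50 and 5.80, at least 3.66-fold higher than on the wild-type stem array. Ifih1, the long double-stranded RNA sensor also known as Mda5, read 4.79, 5.22, 6.66 and 4.77 and reached the limit on the LncGata6 mutant array alone. The same held for the oligoadenylate synthetase-like genes: Oasl2 read 4.72, 4.55, 6.74 and 4.75, and Oasl1 read 4.86, 4.91, 6.62 and 4.48. Bounds were 2.05-fold for Ifih1 and 2.18-fold for Oasl2. Oas3, a synthetase that activates RNase L, was also counted, at 4.23, 3.59, 5.37 and 4.88, but its value lay under the wild-type stem limit, so it has no fold. Eif2ak2, the RNA-activated kinase that halts translation, was above the limit on all 4 arrays, at 5.20, 5.70, 6.12 and 5.54, and differed by 1.34-fold. Oas, Ifit, Gbp and Irg genes have close relatives, and how far features of these families share probes is not known here.

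Antiviral effectors were mixed, with 7 of 17 higher and 1 lower. Ifit1, which binds viral RNA lacking a host cap, read 4.71, 3.31, 6.73 and 4.20 and was at least 2.15-fold higher than on the wild-type stem array. Its neighbours Ifit2 and Ifit3 lay under the limit throughout, at 2.28 to 3.87 and 3.37 to 4.61. So did Isg15, the ubiquitin-like modifier with 3 ISRE cores in front of its gene, at 2.84, 2.70, 4.27 and 3.87. Herc6, the mouse ligase for Isg15, read 4.63, 3.38, 5.97 and 4.84. Rsad2, the radical-SAM enzyme viperin, and Cmpk2, the adjacent nucleotide kinase gene, read 6.01, 3.51, 5.81 and 6.39, and 5.53, 4.61, 5.83 and 5.11. These 3 genes were higher by bounds of 1.27-fold, 1.14-fold and 1.15-fold, so how much lower they were on the wild-type stem array is not measured. Ifi35, Trim30a and Samd9l were the remaining higher effectors, with LncGata6 mutant values of 5.81, 5.50 and 5.99.

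Ifitm3 ran the other way. This membrane protein, which blocks virus entry and responds to both interferons, read 8.24, 7.74, 5.30 and 8.06. It was above the limit on 3 arrays and just under it on the LncGata6 mutant array, where it was at least 5.40-fold lower than on the wild-type stem array. Ifitm2, a neighbouring relative examined after its values were seen, read 7.64, 7.47, 5.52 and 7.72 and was 3.86-fold lower. Of 3 other relatives looked at with it, Ifitm1 and Ifitm5 lay under the limit throughout, and Ifitm6 was above it on the Ehf knockout array alone (8.86). Bst2, or tetherin, which holds budding virus at the cell surface, read 8.24, 5.56, 5.23 and 6.07. Its value stood above the limit on the non-stem and Ehf knockout arrays alone, with both an ISRE and a GAS core in front of the gene.

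Of 5 immune GTPases, which attack vacuoles that hold microbes, 3 were higher on the LncGata6 mutant array. Igtp, or Irgm3, read 6.34, 6.09, 8.13 and 5.83 and was 4.10-fold higher than on the wild-type stem array and 4.92-fold higher than on the Ehf knockout array. Gbp2 read 5.22, 5.13, 6.81 and 5.93, and Gbp7 read 5.84, 5.25, 6.73 and 6.58, with bounds of 2.28-fold and 2.16-fold. Irgm1, a regulator of the other Irg proteins, stayed between 5.69 and 6.15 on all arrays. Of 3 genes that supply peptides to MHC class I, 0 were counted as higher, with Psmb9 under the limit on every array. Psmb8, an immunoproteasome subunit, read 5.11, 6.34, 6.41 and 5.93, and Tap1, a chain of the peptide transporter, read 5.66, 6.06, 6.59 and 6.01 and differed by 1.44-fold. Tapbp, the peptide-loading chaperone tapasin from outside the list, named after its values were seen, was 2.02-fold higher. Psmb10, Psme1, Tap2 and Tapbpl, also from outside the list, differed by 0.07, 0.04, 0.52 and 0.56, short of the limit.

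The ADP-ribosyltransferase genes and their ligase partner lie close together on 1 chromosome and respond to both interferons. Parp14 read 5.82, 5.41, 7.22 and 5.39 and was at least 3.02-fold higher on the LncGata6 mutant than on the wild-type stem array. Parp9 read 5.24, 5.05, 6.07 and 4.87 (at least 1.36-fold), and its ubiquitin ligase partner Dtx3l, whose gene overlaps that of Parp9 in RefSeq, read 5.84, 5.85, 6.56 and 6.04 (1.63-fold). Parp14 and Parp9 passed the 2-fold limit and Dtx3l did not. Lgals3bp, a secreted glycoprotein, was above the limit on all 4 arrays within a narrow range, 6.26 to 7.03.

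Type I and interferon-gamma targets were then compared. On the LncGata6 mutant array 11 of 22 type I genes, 4 of 10 interferon-gamma genes and 6 of 10 genes of both were higher than on the wild-type stem array, with median differences of 1.36, 0.40 and 1.02. The type I median thus exceeded the interferon-gamma median by 0.96, or by 0.50 with genes of both interferons counted as interferon-gamma. The order depended on the reference array. With the non-stem array in its place, chosen once the values had been seen, the medians were 0.55 and 0.96 for the LncGata6 mutant, and type I lay 0.42 below interferon-gamma (a difference of -0.42). Between the wild-type arrays, the medians of stem against non-stem were -0.81 for type I, 0.36 for interferon-gamma and -0.43 for both. For the Ehf knockout against the non-stem array, the medians were -0.05 for type I and 0.34 for interferon-gamma. Which array carried the contrast was not tested. Most type I values on the wild-type stem array were under its control limit (21 of 22), against 4 of 10 interferon-gamma values, so the depth of the type I difference is not measured there. With the Ehf knockout as the second array, the type I and interferon-gamma medians of the LncGata6 mutant were 0.58 and 0.59. Type I lay 0.44 higher when genes under the limit on every array were left out. That filter kept type I genes such as Ifit1, Oasl1 and Oasl2, which reached the limit on the LncGata6 mutant array alone. It favours that array, so nothing is read from the shift.

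**Figure D2:**
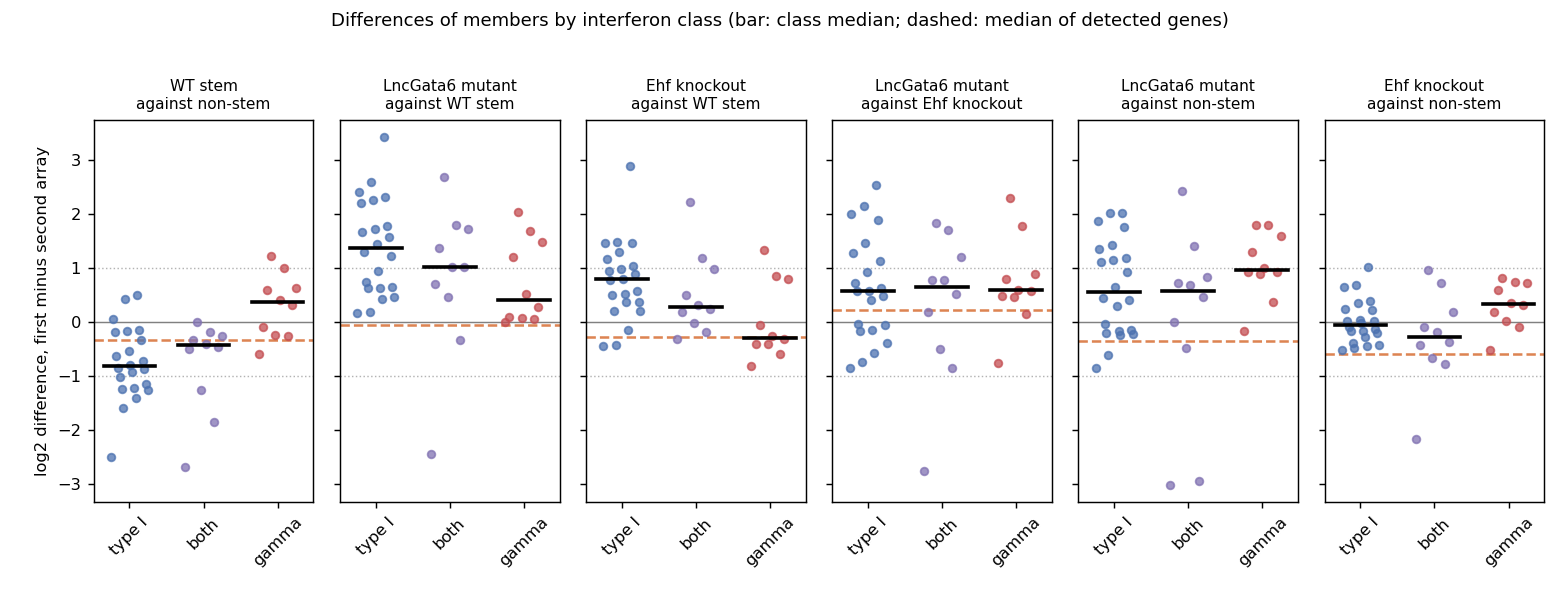
Log2 differences of interferon response genes between pairs of arrays, by class; each point is a gene, the black bar the class median, the orange dashed line the median over genes above the limit on either array, and dotted lines mark 2-fold. Type I medians lie above interferon-gamma medians where the wild-type stem array is the second array (1.36 against 0.40 for the LncGata6 mutant, 0.79 against -0.29 for the Ehf knockout) and below them where the non-stem array is. For the Ehf knockout against the wild-type stem array, 4 of 22 type I and 8 of 10 interferon-gamma genes were above the limit on either array. That type I median thus rests mostly on values under the limits.

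Between the wild-type arrays, 1 of 42 genes was higher in stem than in non-stem cells and 5 were lower, against 3.01% and 7.29% of all genes, or 10.7% and 25.9% of genes above the limit on either array. Psmb8 was the higher gene, by at least 2.26-fold. The lower genes were Usp18, Irf7, Rsad2, Bst2 and Samd9l. Bst2 stood furthest apart, at least 6.12-fold brighter on the non-stem array, and Samd9l, an antiviral restriction factor, read 6.47, 4.62, 5.99 and 5.80. The 5 lower genes were 11.9% of all 42. Of the 42, 22 were above the limit on either array, the number to set beside the second pair of shares. Under quantile normalization Usp18 and Irf7 no longer passed. The member median was -0.43, beside -0.33 over genes above the limit on either array. Hepatocyte and kidney tubule markers were above the limit on the non-stem array only, and their part in these differences was not tested.

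On the Ehf knockout array 4 of 42 genes were higher than on the wild-type stem array and 0 were lower, against 2.16% and 3.75% of all genes, or 10.4% and 18% of genes above the limit on either array. They were Rsad2, Gbp7, Trim30a and Samd9l, with folds of at least 1.70, 1.94, 1.29 and 1.13. Of the 42 genes, 20 were above the limit on either array. Trim30a, a ubiquitin ligase that restrains inflammatory signalling, read 5.03, 3.77, 5.50 and 6.0. All 4 were also higher on the LncGata6 mutant array, a comparison that uses the same wild-type stem array. Rsad2 and Trim30a had their highest values on the Ehf knockout array, unlike most of the list. Quantile normalization and cyclic loess each gave 7 higher genes, with Irf7, Gbp2 and Zbp1 added. With the non-stem array as the reference, 0 of 42 were higher and 1, Bst2, was lower, against 2.53% and 10.2% of all genes, or 8.78% and 35.4% of genes above the limit on either array. In that comparison 24 of the 42 were above the limit on either array.

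The LncGata6 mutant array was also set against the arrays other than wild-type stem. Against the Ehf knockout array 12 of 42 genes were higher and 1, Ifitm3, was lower, beside 5.47% and 3.03% of all genes, or 23.4% and 13% of genes above the limit on either array. Of the 42 genes, 31 were above the limit on either array. Of these 12 genes, Irf7, Herc6 and Parp9 no longer passed under at least 1 of 3 other scalings. Against the non-stem array 14 were higher and 2, Bst2 and Ifitm3, were lower, beside 3.26% and 7.13%, or 11.2% and 24.6% of genes above the limit on either array. In that comparison 32 of the 42 were above the limit on either array. The 11 genes higher on the LncGata6 mutant array than on every other array were Ifit1, Usp18, Irf7, Ifih1, Oasl1, Oasl2, Herc6, Irf1, Igtp, Zbp1 and Parp14, from all 3 classes. The same rule was met by 400 of all 30702 genes (1.30%), or 6.49% of the 6165 genes above the limit on the LncGata6 mutant array. These comparisons share the LncGata6 mutant array. Over all 42 genes, 28 were highest there (66.7%), beside 17.2% of all genes, and 26 were lowest on the wild-type stem array (61.9%), beside 15.1%; values under the control limits enter both counts.

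The signalling genes of the pathway were read from a list of ligands and receptors. Of 10 interferon genes, 9 were under the limit on all arrays. The exception was Ifng, which read 1.83, 3.64, 5.36 and 2.30 and so only just reached the limit on the LncGata6 mutant array. Among 6 receptor chains, Ifngr1 read 5.78, 7.73, 7.61 and 7.32 and was 3.85-fold higher on the wild-type stem than on the non-stem array. Ifngr2 read 6.64, 7.08, 8.04 and 6.71. Of the type I chains, Ifnar1 stayed between 5.73 and 6.28, and Ifnar2 read 6.37, 5.12, 5.95 and 6.47. The wild-type stem array held the lowest value of both type I chains and the highest of Ifngr1. For Ifnar1 and Ifngr1 the gaps to the LncGata6 mutant array were small, 1.07-fold and 1.08-fold. Ifnar2 was under the wild-type stem limit and was counted as lower there than on the non-stem array (at least 1.68-fold). On the Ehf knockout array Ifnar2 was counted as higher than on the wild-type stem array (at least 1.79-fold). Ifngr2 was highest on the LncGata6 mutant array. Between the LncGata6 mutant and wild-type stem arrays 0 of 6 receptor chains were counted as higher or lower. Against the non-stem array Ifngr1 and Ifngr2 were higher on the LncGata6 mutant array (3.55-fold and 2.64-fold), as was Ifngr2 against the Ehf knockout array (2.52-fold). Ifnlr1, the specific chain of the interferon lambda receptor, was under the limit throughout, and Il10rb, its partner, lay between 5.68 and 6.42.

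Some interferon targets outside the list were also higher on the LncGata6 mutant array. Of 28 other measured type I targets 9 were higher than on the wild-type stem array and 0 lower, beside 2.57% and 2.53% of all genes, or 11.9% and 11.7% of genes above the limit on either array. Their median difference was 0.68, with 5 negative differences, and 14 of the 28 were above the limit on either array. Ddx60, an RNA helicase, was at least 1.68-fold and Ifit1bl1 at least 2.37-fold higher, and Parp12 was 4.85-fold higher. Of 18 other interferon-gamma targets 8 were higher and 0 lower, with a median of 0.78 and 3 negative differences. Ido1, the tryptophan-degrading enzyme induced by interferon-gamma, read 4.28, 3.46, 8.02 and 3.07, at least 5.28-fold higher. The MHC class I chains H2-K1 and H2-D1 were 2.60-fold and 2.31-fold higher, among 4 measured chains. On the Ehf knockout array 6 of the 28 other type I targets were higher, among them Sp100 (at least 2.40-fold), Ifi204 (at least 1.68-fold) and Slfn1 (at least 1.27-fold), beside 2.16% of all genes. Of the 18 other interferon-gamma targets 0 were higher there and 1, the immunoproteasome subunit Psmb10, was lower.

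**Figure D3:**
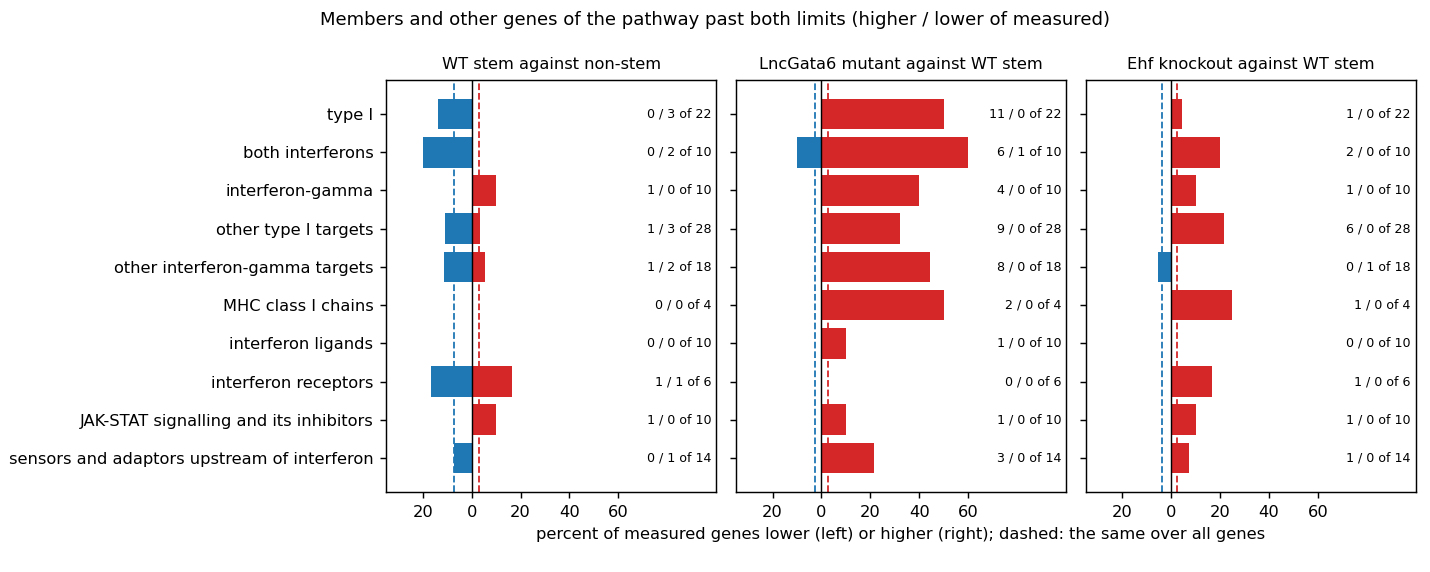
Percent of the measured genes of each list that were higher (red, right) or lower (blue, left) in 3 comparisons, with the counts at the right edge; dashed lines give the same shares over all genes. On the LncGata6 mutant array the 3 member classes reach 50% (type I), 60% (both) and 40% (interferon-gamma) higher, beside 2.57% of all genes.

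Cell type markers differed between the same arrays. The median of 11 measured T cell and intraepithelial lymphocyte markers was 4.83, 4.21, 8.00 and 5.26, and Gzma, a lymphocyte granzyme, read 7.86, 7.15, 11.5 and 5.88. The list ran from 3.97 to 11.5 on the LncGata6 mutant array and from 2.97 to 7.15 on the wild-type stem array, with 9 and 2 of 11 genes above the limits. The 5 pan-leukocyte markers had medians of 5.65, 4.93, 6.16 and 6.64. Neutrophil markers had medians of 5.53, 2.65, 2.73 and 9.80, with 0 of 9 above the limit on the LncGata6 mutant or the wild-type stem array. Macrophage markers, at 5.69, 4.46, 4.0 and 7.07, were above the limit for 2 of 11 genes on each of those arrays, among them Lyz2 at 10.5 and 9.11. Of 5 plasmacytoid dendritic cell markers, Siglech, Cox6a2 and Pacsin1 lay under the limit on all 4 arrays, while Ly6d reached 7.97 on the Ehf knockout array and Klk1 read 11.6, 8.91, 7.82 and 4.37. Most interferon response genes were highest on the array with the highest lymphocyte markers, and the part of lymphocyte RNA in their values was not tested. The same array had the highest enterocyte markers, with a median of 9.09, 6.79, 10.7 and 3.16 and 7 of 7 higher than on the wild-type stem array, while 4 of 4 Paneth cell markers were lower. Their part was not tested either. The Ehf knockout array had the highest pan-leukocyte, macrophage and neutrophil markers. On it 4 of 42 interferon response genes (9.52%) were higher than on the wild-type stem array, beside 2.16% of all genes. Of the 42, 20 were above the limit on either array, and 10.4% of all such genes were higher. The part of leukocyte RNA there was not tested.

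**Figure D4:**
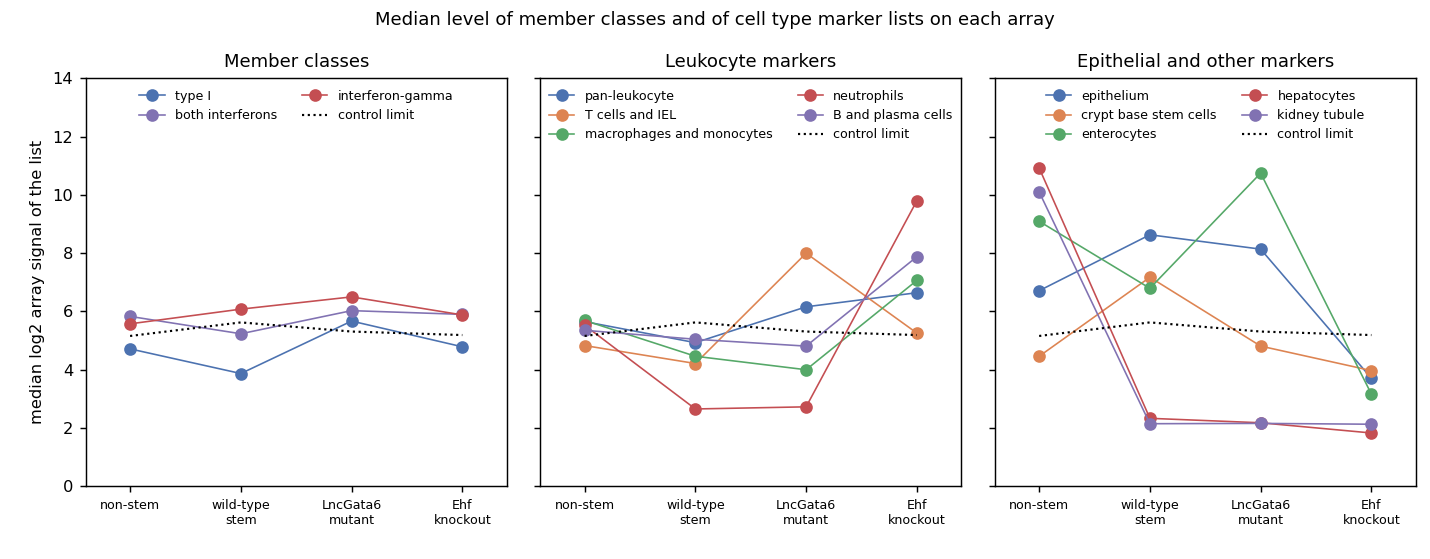
Median log2 signal of the member classes (left), leukocyte marker lists (middle) and epithelial or other marker lists (right) on each array, with the control limit dotted; lines join values of 1 list and IEL stands for intraepithelial lymphocytes. The type I median is highest on the LncGata6 mutant array (5.67) and lowest on the wild-type stem array (3.87), the T cell and IEL median runs from 4.21 to 8.00 between those arrays, and the epithelial median is under the limit on the Ehf knockout array (3.71).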

How the data were processed

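Total RNA of sorted cells was measured on 4 Clariom D mouse arrays, 1 per group. The deposited table holds the authors' log2 values for 72688 features. Per the submitters' processing notes they were made with RMA and Affymetrix Power Tools. Tool versions and the feature build are not given in the sources used here. Such values understate differences of dim features. Symbols from the platform annotation were updated through RefSeq genes (GRCm38.p6), which changed 1135. Then 31258 features had 1 symbol, 1492 several and 39938 none, giving 30702 genes. For 441 genes with more features the brightest by mean was used.

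Differences, the control limits and the median and quantile alternatives were computed in Python 3.11.15 with pandas 2.3.3, and cyclic loess in R 4.3.3 with limma 3.58.1. Each fold is a ratio of deposited values, brighter over dimmer, with no fold where its bound was under 1. Counting was tested on simulated arrays. All members may be named, with ligands, receptors and up to 4 called genes of each other pathway list by size of difference. Tapbp, the genes set beside it and the Ifitm relatives were named outside this rule, after their values were seen. The members, lists and limits were chosen with earlier results of these data known. The alternatives were scaling, choice of feature, detection limit, fold limit, class assignment and the reference array. The number of arrays limits the precision.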

Additional observations from a re-analysis of the deposited data

How the results depend on the processing

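No paired analysis was possible because each group has 1 array. Of 112 alternative values of the counts and medians, 78 kept their sign and stayed within 1.5 times, 29 moved further and 5 changed sign. Part of the 78 could not change. Median centring shifts a whole array and so leaves type I minus interferon-gamma as it was. The median of features can alter Irf1 alone, the only member with a second feature. All 21 higher calls on the LncGata6 mutant against the wild-type stem array were kept under median centring, quantile normalization and cyclic loess. The medians of named features on these arrays were already close, at 3.41 and 3.42, so median centring could hardly lose a call. With the median of features in place of the brightest, the Irf1 call was lost, at 0.84. With a 4-fold limit 8 were higher. With the non-stem array as the reference, chosen after seeing the data, 2 were lower, and type I minus interferon-gamma reversed to -0.42 for the LncGata6 mutant and -0.39 for the Ehf knockout, whose member median reversed to -0.000996.

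For the Ehf knockout, higher calls came to 7 under quantile normalization, cyclic loess, the 75th percentile of the array as detection limit and the 1.5-fold limit, to 2 at 4-fold and to 0 against the non-stem array, with 1 lower there. For the wild-type stem against the non-stem array, higher calls came to 2 with the 75th percentile, 3 at 1.5-fold and 0 at 4-fold, lower calls to 3 under quantile normalization, 9 at 1.5-fold and 2 at 4-fold, and the member median to -0.14 under quantile normalization. With genes of both interferons counted as interferon-gamma, type I minus interferon-gamma came to -0.56 there, 0.50 for the LncGata6 mutant and 0.71 for the Ehf knockout. The Ehf knockout member median came to 0.87 under quantile normalization and 0.85 under cyclic loess. For the LncGata6 mutant against the Ehf knockout array, higher calls came to 3 at 4-fold, lower calls to 2 under the 3 scalings and at 1.5-fold, and the member median to 0.22 under quantile normalization and 0.33 under cyclic loess. Type I minus interferon-gamma, -0.01 there, came to 0.000525 under quantile normalization, -0.0502 under cyclic loess and 0.44 with genes above the limit on 1 or more arrays. That last filter kept type I genes that reached the limit on the LncGata6 mutant array alone, so it favours that array. The causes were not tested.

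Scaling also moved all genes. The share of higher among all calls was 29.2% for wild-type stem against non-stem (43.9% with quantile normalization), 50.4% for the LncGata6 mutant (66.2% with cyclic loess), 36.6% for the Ehf knockout (47.1%, 54.9% and 54.6% with centring, quantile and loess) and 64.3% between the mutants (55.2%, 51.3% and 56.6%). The median of all genes moved from -0.20 to -0.02 for the Ehf knockout with centring.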
